A study of Drosophila melanogaster with 4 samples.

Results

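Isolated H3K4me2 regions, those with no other enriched region within 15 kb on either side, were examined in late Drosophila melanogaster embryos. They were chosen from the authors' combined list of enriched regions as the regions on 2L, 2R, 3L, 3R, 4 and X whose gap to the region before and to the region after exceeded 15000 bp, leaving out the first and last region of each sequence. This gave 658 of the 5294 regions on these 6 sequences (12.4%, Wilson 95% interval 11.6 to 13.3) and of 5383 regions in the combined list as a whole. The series held 2 ChIP libraries precipitated with an Abcam antibody against H3K4me2 and 2 input DNA libraries. All 4 came from whole wild-type embryos of the Oregon-R strain aged 14 to 16 h, and the inputs entered only through the authors' calls. Separate embryo collections are not stated for the replicates, so their spread may be technical. Read numbers are not stated for any of the lists, and the depth is therefore unknown.

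Dimethylation of lysine 4 of histone H3 is laid down by the COMPASS family of methyltransferases, which in flies comprises Set1, trithorax and trithorax-related. The mark lies around the starts of active genes, over enhancers, and over genes held ready for transcription. In whole embryos it is averaged over all cell types, so that a mark carried by few cells gives a weak signal. The fly genome is compact, with stretches of closely spaced, broadly expressed genes between stretches in which genes are few and regulatory sequence is long.

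The gap rule picked out thinly marked sequence, and 1 list served for both the choice and the description of widths and scores. Widths, scores and recurrence are therefore given as descriptions without tests. The smaller of the 2 gaps beside an isolated region had a median of 26589 bp and reached 199608 bp, and the larger had a median of 61095.5 bp and reached 347595 bp. The gaps that border isolated regions added up to 58.3 Mb, 48.4% of the 6 sequences. The isolated regions themselves occupied 1.85% of these sequences and held 11.2% of all bases within regions. Whether reads could be aligned throughout the gaps was not tested.

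Regions on either side of the threshold were as follows. Just inside it were 2R 19467784 to 19471986 (smaller gap 15025 bp, combined score 0.97) and a pair on 3R that share a gap of 15060 bp, 17307136 to 17309592 (score 1.64) and 17324653 to 17326301 (score 0.35). Just outside it were X 13674113 to 13680418 (14997 bp, score 2.33), 3L 12764844 to 12767562 (14982 bp, score 1.68) and 3R 12010937 to 12014497 (14979 bp, score 2.13). All of these recurred in both replicates except that of lowest score, the region from 17324653 on 3R. It was found in replicate 1 and had no overlapping region in replicate 2.

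Isolated regions had lower scores than the other regions. The score is the authors' own value for each region, on a scale that is not stated. In replicate 1, the 603 regions that overlapped an isolated region had a median score of 1.32, against 1.95 for the 4369 other regions. In replicate 2, the median was 1.17 over 592 regions, against 1.67 over 4402. The isolated regions thus averaged 1.24 ± 0.10 and the others 1.81 ± 0.20 (SD of the replicate medians, n = 2 each). The difference was -0.63 in replicate 1 and -0.50 in replicate 2 (mean -0.57 ± 0.092), several times its spread between replicates. When only the upper 50% of combined scores entered the gap rule and the comparison, it was -0.14 ± 0.031. The set changed with this setting. Then 556 regions met the rule, whereas 186 of the 658 isolated regions scored above the median. Most of the 556 were thus among the other regions in the main comparison.

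The difference was small among the lowest-scoring regions, largest around the middle of the range and smaller again towards its upper end. At the 10th percentile the groups differed by -0.090 ± 0.059 (SD, n = 2), with isolated regions at 0.50 ± 0.022 and others at 0.59 ± 0.037. At the 75th percentile isolated regions stood at 1.77 ± 0.20 and others at 2.27 ± 0.24. Scores between 2 and 2.5 were held by 80 of 603 isolated regions of replicate 1 and 63 of 592 of replicate 2. Among the other regions they were held by 1137 of 4369 and 1146 of 4402. From 2 to 2.25 the shares were 8.6% and 6.9% of isolated regions, against 12.4% and 15.0% of the others. The most frequent scores of isolated regions lay between 0.5 and 0.75, with 13.9% of them in replicate 1 and 21.1% in replicate 2, where the other regions had 9.5% and 11.2%. In the combined list, 186 of the 658 isolated regions (28.3%) scored above the median, against 50.0% of all 5294 regions. The lowest score quartile, with 25.0% of all regions, held 239 isolated regions (36.3%), and the highest quartile, also 25.0%, held 65 (9.88%).

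**Figure D1:**
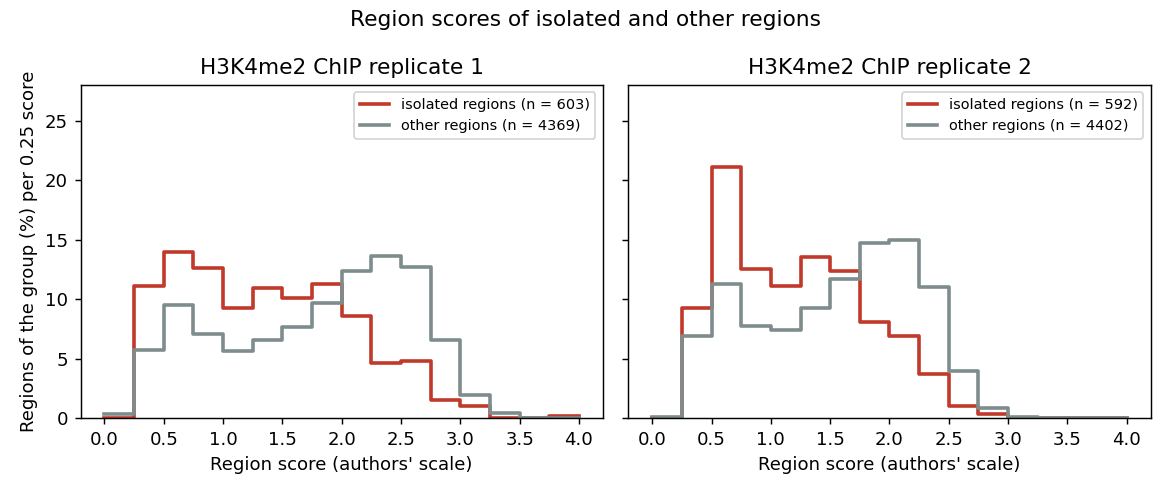
Share of the isolated regions (red) and of the other regions (grey) per score interval of 0.25, in the lists of replicate 1 and replicate 2. Isolated regions were most frequent between 0.5 and 0.75 in both lists, whereas the other regions were most frequent at scores above 2.

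Isolated regions were slightly narrower. Replicate 1 gave them a median width of 2869 bp, against 3183 bp for the other regions, and in replicate 2 the medians were 2798.5 bp for isolated regions and 3087.5 bp for others, a difference of -301.5 ± 17.7 bp (SD, n = 2). It was -149 ± 25.1 bp with a gap threshold of 30 kb. For the 556 regions that met the rule in the upper 50% of scores it was -198.5 ± 41.7 bp. In the combined list, regions wider than 8 kb numbered 20 of the 658 (3.04%), against 4.57% of all regions. These 20 broad isolated domains had combined scores of 1.12 to 2.51.

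Width and score rose together within the isolated set, and the narrower median went with the lower scores. The Spearman rho of width and score was 0.75 in both replicates, over 603 and 592 isolated regions, against 0.68 and 0.70 over the other regions. At the same score, isolated regions were the wider ones. Within score quartiles they exceeded the others by 215 ± 6.8 bp (SD, n = 2), so the direction of the width difference turned. In the combined list, isolated regions with scores from 1 to 1.5 had a median width of 3558 bp against 3164.5 bp, and those above 2 a median of 4796.5 bp against 4315.5 bp. Below 0.5 the medians were 1802 and 1817.5 bp.

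The converse held for score at a given width. Within width quartiles isolated regions differed from the others in score by -0.34 ± 0.079 (SD, n = 2). At widths of 3000 to 4000 bp the median score was 1.49 in replicate 1 and 1.34 in replicate 2 for isolated regions, against 2.11 and 1.88 for the others. At 4000 to 6000 bp it was 1.81 and 1.59 for isolated regions, against 2.34 and 2.04. Above 6000 bp the medians were closer, with 2.35 and 1.97 for isolated regions against 2.49 and 2.12. Up to 2000 bp they hardly differed, with 0.46 and 0.48 for isolated regions against 0.47 and 0.46.

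The score followed the number of sides on which a region stood free. The 658 regions with a long gap on both sides, those isolated by the rule, were set beside 1963 regions with a long gap on 1 side and 2661 with none. Their median scores averaged 1.24 ± 0.10, 1.64 ± 0.18 and 1.91 ± 0.21 over the replicates (SD, n = 2 each), and the order was the same in both. Median widths were 2834 ± 49.9 bp, 2944.5 ± 58.7 bp and 3287 ± 56.2 bp. The widths too had the same order in both replicates. Within replicates, isolated regions differed in score from regions with 1 long gap by -0.40 ± 0.079, and those from regions with none by -0.27 ± 0.021 (SD, n = 2 each). Both differences exceeded their spread. The corresponding differences in width were -111 ± 8.84 bp and -343 ± 2.47 bp.

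**Figure D2:**
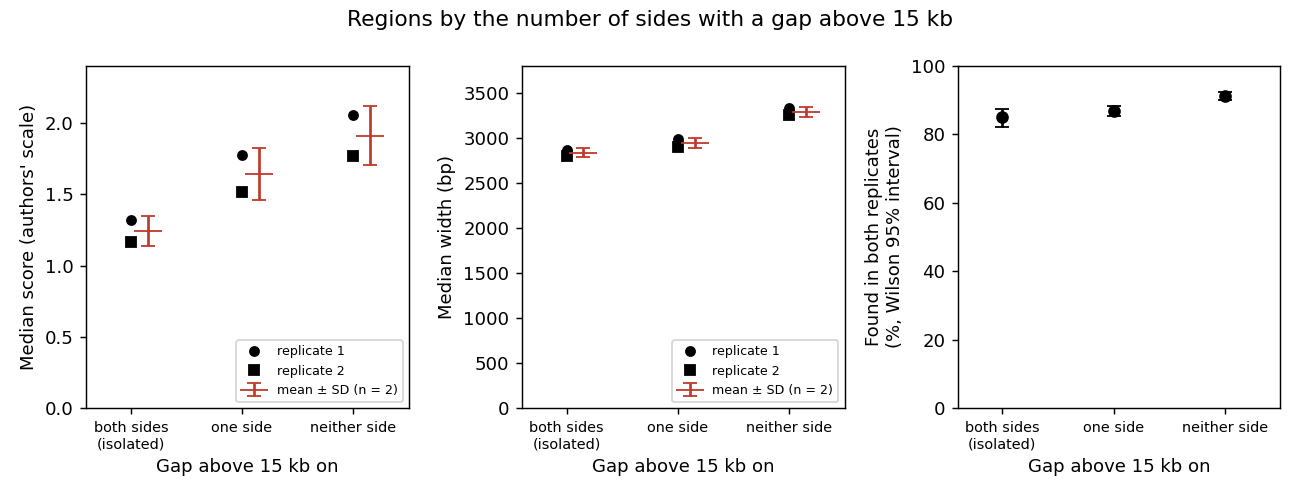
Median score (left), median width (middle) and share found in both replicate lists (right) of regions with a gap above 15 kb on both sides, on 1 side or on neither. Points are the replicate lists, red bars the mean ± SD (n = 2), and error bars on the right Wilson 95% intervals. Scores were 1.24, 1.64 and 1.91 on average.

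Among isolated regions, median scores had no order by the length of the smaller gap. Replicate 1 had the higher median in every class, which enters the SDs below, and differences between the classes were not tested. Median scores averaged 1.29 ± 0.10 for the 169 regions whose smaller gap was 15 to 20 kb and 1.23 ± 0.13 for the 210 at 20 to 30 kb. They averaged 1.24 ± 0.042 for the 166 at 30 to 50 kb, 1.21 ± 0.14 for the 93 at 50 to 100 kb and 1.31 ± 0.14 for the 20 beyond 100 kb (SD, n = 2 each). Across the 658 isolated regions, the smaller gap and the combined score had a Spearman rho of -0.020. The gaps before and after a region were hardly related to each other, with a rho of 0.096. Both values are over regions of 1 list, and regions are not independent replicates.

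Most isolated regions recurred, at a rate close to that of regions of equal score. Overlap with regions of both replicates was found for 559 of the 658 (85.0%, Wilson 95% interval 82.0 to 87.5), against 88.8% of all 5294 regions. A further 36 were found in replicate 1 alone and 18 in replicate 2 alone, with median combined scores of 0.33 and 0.33. The other 45 (6.84%, interval 5.15 to 9.03) were in neither list, against 5.33% of all regions. These 45 had a median score of 0.36 and a median width of 1229 bp, and 28 fell short of the narrowest width listed in either replicate, 1302 bp.

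The share that recurred followed the score class. With scores of at most 0.5, 63 of 156 isolated regions (40.4%, Wilson 95% interval 33.0 to 48.2) and 298 of 760 others (39.2%, interval 35.8 to 42.7) were found in both lists. From 0.5 to 1 the shares were 97.5% and 95.7%, and from 1 to 1.5 they were 99.2% and 99.5%. Above 2, all 82 isolated and all 1636 other regions recurred. When the other regions were weighted to the score classes of the isolated ones, a comparison added after the data were seen, 84.7% were in both lists, beside 85.0% of the isolated regions and 89.3% of the others unweighted. These intervals cover counting error only.

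**Figure D3:**
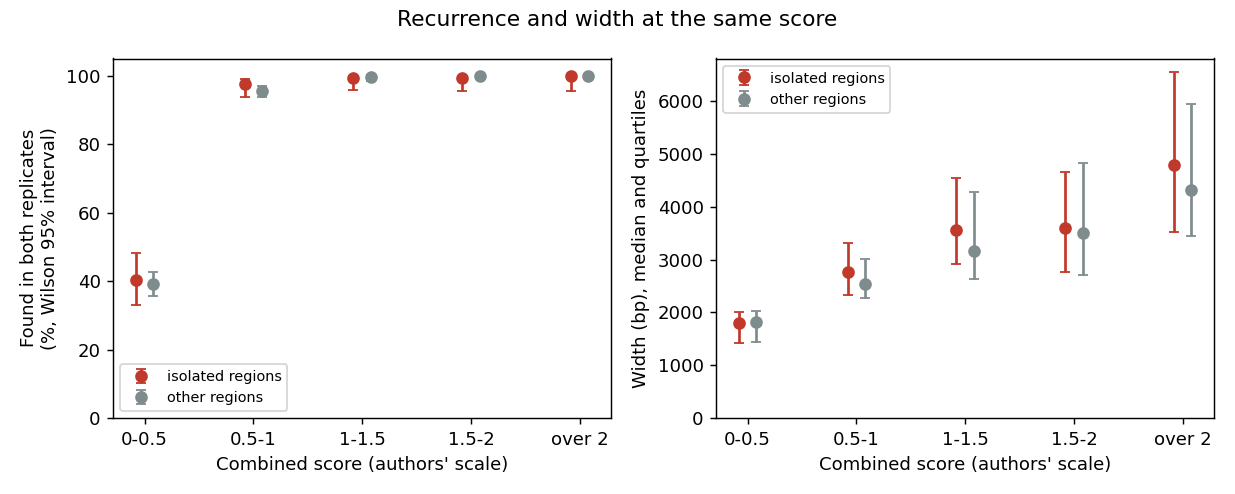
Share of isolated (red) and other (grey) regions found in both replicate lists, with Wilson 95% intervals (left), and their widths as median and quartiles (right), by class of combined score. Recurrence was about 40% in both groups up to a score of 0.5 and above 95% in the other classes, and isolated regions were the wider ones in each class above 0.5.

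Scores of isolated regions were closely related between the replicates. Over the 540 matched one to one in both lists, the Spearman rho of scores was 0.97 and Pearson's r 0.97, against 0.98 and 0.98 over 3913 other regions. The rho of widths was 0.94 against 0.97. Replicate 1 gave the higher score for 473 of the 540 (87.6%), against 90.9% of all 4453 matched regions. The excess had a median of 0.21 in isolated regions (SD 0.18 over regions) and of 0.27 in the others (SD 0.18). The smaller shift went with the lower scores. Up to a score of 0.5 the median difference was -0.014 for isolated regions and 0.021 for the others, and above 2 it was 0.35 and 0.36. The borders of isolated regions agreed less often between the replicates, a comparison that was not made at equal score. The start and the end each differed by at most 250 bp between replicates in 381 of 540 (70.6%, Wilson 95% interval 66.6 to 74.2), against 80.6% of all matched regions and 3210 of 3913 others (82.0%, interval 80.8 to 83.2). Division of a region into parts in at least 1 replicate was found for 19 of the 658 (2.89%), against 3.97% of all regions.

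**Figure D4:**
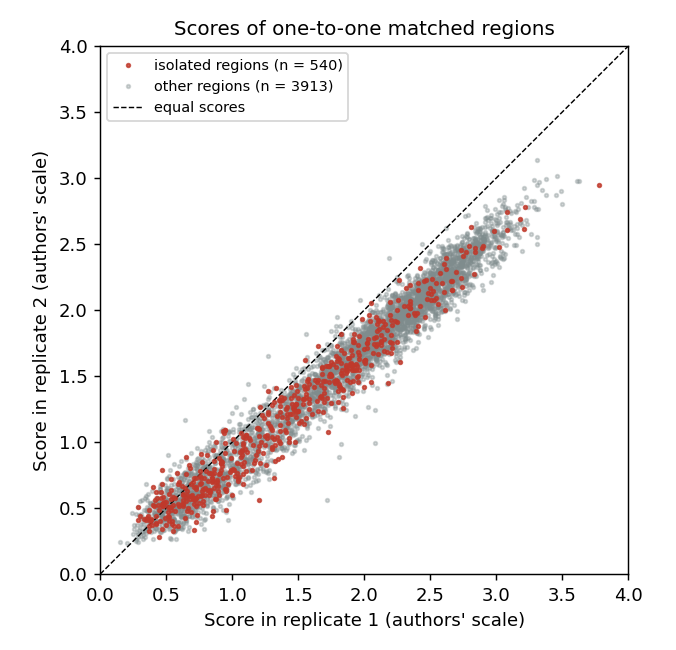
Score in replicate 1 (horizontal) and in replicate 2 (vertical) of regions matched one to one, with the 540 isolated regions in red and the 3913 others in grey. The dashed line marks equal scores. Isolated regions lie along the same band as the others, mostly below the line, and are concentrated at its lower part.

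The gap rule gave similar numbers within the replicate lists, where 664 regions of replicate 1 and 663 of replicate 2 were isolated by the gaps of their own list. The combined list held all but 9 regions of replicate 1 and 5 of replicate 2 on the 6 sequences, so a long gap in it was bound to reappear in the replicate lists. Of the 664 and 663, 77 and 100 overlapped regions that were not isolated in the combined list, which holds more regions.

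Isolated regions were present on every chromosome arm. They made up 13.7% of the regions on 2L (128 of 932, Wilson 95% interval 11.7 to 16.1), 13.5% on 3L (139 of 1033), 13.2% on 3R (166 of 1253) and 11.8% on X (111 of 941). On 2R the share was 9.56% (103 of 1077, interval 7.95 to 11.5). Chromosome 4, a short and largely heterochromatic chromosome, had 11 among 58 regions (19.0%, interval 10.9 to 30.9). Per Mb there were 5.95 on 3R, 5.66 on 3L, 5.56 on 2L, 4.95 on X and 4.87 on 2R. Chromosome 4 had the highest value, 8.14, from its 11 regions on 1.35 Mb.

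The X chromosome, which is dosage compensated in males, had the lowest median score of isolated regions among the 5 large arms. The median of its other regions was the highest. On X the median score of isolated regions was 1.10 in replicate 1 and 0.96 in replicate 2, against 2.06 and 1.80 for the other regions of X. The difference averaged -0.90 ± 0.090 (SD, n = 2). On the autosomal arms it was -0.63 ± 0.050 on 2R, -0.60 ± 0.072 on 3R, -0.49 ± 0.19 on 2L and -0.40 ± 0.064 on 3L. The value on X lay below each of these in both replicates. Isolated regions of 3L had the highest average of the medians, 1.35 ± 0.15, close to 1.29 ± 0.013 on 2L. On chromosome 4 the medians were 0.88 over 11 regions and 1.07 over 8, against 1.53 and 1.24 for its other regions, a difference of -0.65 and -0.16. The arms were singled out after their values were seen, and the differences between them were not tested.

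Isolated regions were found in all 57 full windows of 2 Mb along the 5 large arms, with 4 to 18 in each and a median of 11. They made up 20.7% of regions in the 14 windows with the least covered sequence (174 of 840) and 8.33% in the 14 with the most (129 of 1549). The Spearman rho between the covered share and the isolated share of a window was -0.71 over the 57 windows. Both shares come from the same list, and thin coverage by construction leaves longer gaps. The window at the centromeric end of the 3L sequence stood apart, with 15 isolated among 28 regions (53.6%) and 4.23% of its sequence covered. Next were window 5 of 2L, 8 to 10 Mb from the centromeric end (16 of 57, 28.1%), and window 10 of 3L, 18 to 20 Mb from it (17 of 61, 27.9%). On 3R, window 7 had the largest number, 18 among 86. The fewest were in window 10 of 2L (4 of 89) and window 6 of X (4 of 80).

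**Figure D5:**
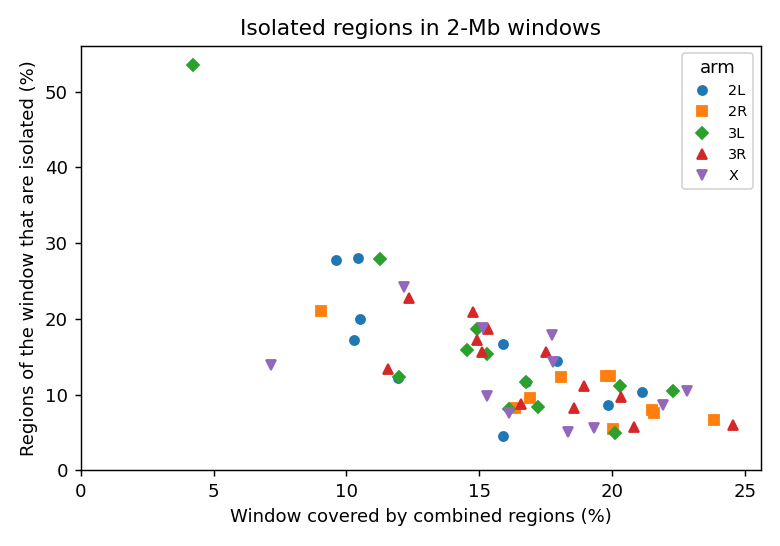
Share of regions that are isolated (vertical) against the share of sequence covered by regions of the combined list (horizontal) in 57 full windows of 2 Mb, with a symbol for each arm. The window at the centromeric end of the 3L sequence, with 53.6% isolated and 4.23% covered, lies apart from the others.

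Isolated regions formed 390 runs of consecutive isolated regions, and 423 of the 658 (64.3%) had an isolated region as a neighbour. The remaining 235 had none. Neighbours share a gap, so part of this follows from the rule. Of the 1316 sides of isolated regions, 536 (40.7%) faced an isolated region, which needs only 1 further long gap, and 31.0% of all 5288 gaps on the 6 sequences were above 15 kb. There were 13 runs of 5 or more, with 70 regions in all. The longest, of 7, lay on proximal 2L from 22469959 to 22919100. It spanned 449 kb, of which its regions covered 21031 bp, with scores of 0.40 to 1.94, and 6 of the 7 recurred in both replicates. Runs of 6 lay on 2L from 17561364 to 18116509 (555 kb, scores 0.25 to 1.05), on 2L from 1255999 to 1657213 (401 kb, scores 0.38 to 2.66) and on X from 2682037 to 3031912 (350 kb, scores 0.37 to 1.44). A run of 5 on proximal 3L from 23663584 to 24226099 extended over 563 kb, or 949 kb with its outer gaps. Median combined scores were 1.02 for regions standing alone and 1.09, 0.88 and 1.23 in runs of 2, 3 and 4, with no order by run length.

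The individual regions are given by position on FlyBase release 5, since no gene annotation or genome of that release was used here. The isolated region of highest score was X 20261563 to 20267881, which was also the highest of the whole combined list (score 3.29). Its scores were 3.78 and 2.95 in replicates 1 and 2, a mean of 3.36 ± 0.59 (SD, n = 2). Gaps of 132432 and 24715 bp surrounded this 6319-bp region. Across the shorter gap lay another isolated domain, X 20292597 to 20302610, with 10014 bp among the 10 widest and a combined score of 2.51. Second was X 9211539 to 9215244 (3706 bp), which scored 3.22 and 2.78 (mean 3.00 ± 0.31) between gaps of 32243 and 32327 bp. It was followed by 2L 6851461 to 6856091, with 3.18 and 2.69 (2.93 ± 0.35). Against their share of 12.4% of regions, isolated regions held 1 of the 10 highest scores of the whole combined list, 5 of the 50 highest, 6 of the 100 highest and 46 of the 1000 highest.

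The others of the 10 highest scores lay on the autosomes. On 3R, 25757018 to 25763303 had a mean score of 2.91 ± 0.24 (SD, n = 2), with gaps of 50677 and 45302 bp. On 2R, 8641249 to 8649162 had 2.91 ± 0.42, 3451618 to 3456180 had 2.84 ± 0.34 and 15998178 to 16004674 had 2.79 ± 0.28. On 3L, 17548149 to 17551500 had 2.72 ± 0.13. On 2L, 1609438 to 1614944 had 2.69 ± 0.29 and 2490767 to 2495018 had 2.68 ± 0.30. All 10 were matched one to one in both replicates and scored higher in replicate 1. Their widths were 3352 to 7914 bp.

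The 10 widest isolated regions measured 8936 to 10515 bp in the combined list. They had combined scores of 1.35 to 2.51, all above the median of 1.04 for isolated regions. The widest, 3L 537887 to 548401, was 10187 bp in replicate 1 and 10266 bp in replicate 2 and had a mean score of 2.18 ± 0.28 (SD, n = 2). On 3R, 19928878 to 19938986 differed by little between the replicates, with 10042 and 10039 bp. The domain 3R 6430574 to 6440643 had the lowest combined score of the 10 (replicate scores 1.64 and 1.32) and gaps of 187918 and 63550 bp. It measured 10070 bp in the combined list but 8915 and 8010 bp in replicates 1 and 2. Also on 3R, 2228636 to 2237667 measured 9032 bp in the combined list but less in replicate 1 (7886 bp) and replicate 2 (7039 bp). The domains X 9974487 to 9984217, 2L 8155424 to 8165028 and X 4974129 to 4983064 were single regions in both replicates, with mean scores of 2.44 ± 0.31, 1.96 ± 0.26 and 2.18 ± 0.23. The other 3, on 3R from 5866344 to 5876588, on X from 20292597 to 20302610 and on 2R from 12837545 to 12846593, were single regions in replicate 1 and each was divided into 2 in replicate 2.

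The most remote regions had low and high scores. On proximal 3L, 24021104 to 24024262 and 24223871 to 24226099 faced each other across 199608 bp, with outer gaps of 288402 and 301087 bp. The first scored 1.55 and 1.40 in the replicates, and the second 0.70 and 0.70. On 2R, 15713233 to 15720247 scored 2.66 and 2.15, and the next region along, 15998178 to 16004674, is the one of 2.79 on average named above. A gap of 277930 bp separated these high-scoring regions. On X, 12097040 to 12100770 scored 1.41 and 1.25 between gaps of 173184 and 225333 bp, 13889679 to 13892526 scored 1.69 and 1.46, and 22254584 to 22257801 scored 1.25 and 0.98. On 2L, 17962498 to 17964924 scored 1.07 in each replicate, and 4030524 to 4035556 scored 1.67 and 1.35. Low values were found on 3L at 13654990 to 13660324 (0.87 and 0.86) and on 3R at 19354843 to 19357112 (0.57 and 0.48). All 10 recurred in both replicates.

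Isolated regions not found in both replicates mostly had low scores. Of those in neither replicate list, only 2 scored above the median of isolated regions. They were X 6328449 to 6329479, 1031 bp wide with a combined score of 1.73, and 3L 23663584 to 23665570, 1987 bp wide with a score of 1.27. The score of the region on X was shared to every digit by 2 other regions, as 132 regions of the combined list share theirs with at least 1 other, and whether it is that region's own value is not known. Among the matched regions, that of highest score on X had the largest excess of replicate 1, 0.83. Next among such excesses were X 17314365 to 17318626, with 2.18 in replicate 1 and 1.45 in replicate 2, and 3L 2235415 to 2238831, with 2.27 and 1.61. Both were narrower in replicate 1, where the region on X measured 2572 bp against 4072 bp, and that on 3L 2597 bp against 3320 bp. The largest departures in favour of replicate 2 were on 3R, at 18154549 to 18156732 (0.47 and 0.79) and 10678095 to 10680280 (0.40 and 0.66).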

How the data were processed

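Significantly enriched regions were deposited by the authors in 3 lists, 1 per ChIP replicate and 1 combined, with a deposited score for each region. Per the file headers, positions are on FlyBase release 5. Aligner, caller, threshold, score scale and the way of combining replicates were not given in the sources used here, and the combined values carry no SD. The lowest start in replicate 1 is 0, so its positions may be off by 1 bp. Sequence names were matched without their prefix.

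Gaps, widths and overlaps (at least 1 bp) were computed with pandas 2.3.3, numpy 2.4.6 and scipy 1.17.1 under Python 3.11.15. Replicate regions were assigned to isolated regions by overlap. Regions matched when each overlapped exactly 1 region of the other list. The gap rule and overlaps gave the right call for all 5294 regions of a simulated list. Its replicate regions were only left out or shifted in start, never divided or joined. The run thus checks the code and not the behaviour of real lists. The regions named are the 10 highest-scoring, widest and most remote, those in neither replicate with a score above the median, the 5 that deviate most between replicates, and 3 on each side of the threshold. Members and rules were chosen with earlier results of these data known. The gene table at hand is on release 6 and was not used. Alternatives were other gap thresholds, the upper 50% of scores, merging, the gaps of each replicate list, a 50% overlap, score and width classes, and each replicate alone.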

Additional observations from a re-analysis of the deposited data

Results flagged for a closer look

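Outside the 6 sequences examined, on the unplaced sequence U and the assembled heterochromatic sequences, 45 of 89 regions of the combined list had gaps above 15 kb on both sides. Whether gaps on unplaced sequence correspond to distances in the genome was not tested. These 45 drew attention because the comparisons above leave these sequences out. Of the 45, 28 lay on U, the median score was 0.99 and the median width 2120 bp, and 31 (68.9%) were found in both replicates where the isolated regions of the 6 sequences had 85.0%.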

How the results depend on the processing

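The number of isolated regions, 658, was 1009 with a gap threshold of 10 kb and 279 with 30 kb. In the upper 50% of scores 556 regions met the rule, most of them not among the 658. Values given for that setting are for those 556. The share found in both replicates, 85.0%, was 99.6% in the upper 50% of scores, and with the gaps of replicate 1 or 2 the share found in the other list was 93.7% or 96.1%. With either replicate left out, 87.7% to 90.4% were found in the other, which by definition cannot be lower than the share found in both. The shares from the gaps of 1 replicate likewise ask for overlap with a single list. The score difference of -0.57 stayed negative in all 10 alternatives, which include a 50% overlap and each replicate alone. It was -0.14 in the upper 50% of scores, -0.34 within width quartiles and -0.63 to -0.50 with either replicate left out. The width difference of -301.5 bp was -241 bp at 20 kb, -149 bp at 30 kb, -198.5 bp in the upper 50% of scores, -412 bp after merging and -314 to -289 bp with either replicate left out. Within score quartiles it reversed to 215 bp. A lower gap threshold by definition gives more isolated regions. Beyond this and the single overlap asked for in some shares, the cause of these shifts was not tested. The remaining 23 of 37 values moved by no more than the replicate spread, the interval or 1.5 times. Those with a 50% overlap repeated the main values. With 2 replicates, the score and width differences of either alone lie within 1 SD of their mean by construction. These values therefore say nothing on stability. No paired analysis was possible because the inputs, which share replicate numbers with the ChIP libraries, have no list of their own. The read depth is unknown, so the number of weak regions missed cannot be estimated.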
